A study of Mus musculus with 2 samples.

Results

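Smooth muscle cells of the mouse colon are described here from a droplet single-cell RNA library of sorted stromal cells. The members are the 125 cells that the authors' deposited annotation names SMCs, out of 6018 annotated colon cells, a share of 2.08% (exact Clopper-Pearson 95% interval 1.73 to 2.47). Both libraries of the series together hold 15377 cells. The study profiled the stroma of the healthy, untreated colon and small intestine of the mouse, with 1 library per tissue. After the epithelium was stripped with EDTA and DTT, the colon was digested with collagenase XI and dispase II for 60 minutes and the small intestine for 45 minutes. Live cells without CD45 (immune cells) and CD326 (EpCAM, epithelium) on their surface were then sorted, and about 16000 per library were loaded on a 10x Chromium controller. The labels give no genotype, strain, sex, age or number of animals, and name no step that separates the muscle layers from the mucosa.

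Each value below comes from 1 library, so cells are not replicates and no test between cell types was run. Intervals and floors cover counting error only, and UMIs (1 per captured RNA molecule) come from PCR-amplified libraries. The labels name cells, and how they were assigned is not given in the sources used here, so the level of a gene in the SMC label is a description of the labelled cells. The 125 cells held 772279 UMIs, with a median of 5526 UMIs (range 1524 to 25718), 2173 genes and 3.53% mitochondrial UMIs per cell. They were compared with 3631 CD81- FBs (fibroblasts), 1105 PDGFRa-hi SEMFs (subepithelial myofibroblasts), 875 CD81+ trophocytes, 217 LECs (lymphatic endothelium) and 53 BECs (blood endothelium, 3 vessel labels pooled). The median depth of these types ran from 3821 UMIs per cell in BECs to 7186 in trophocytes. Pericyte labels covered 8 cells with 34676 UMIs in all, and their values are given only for orientation. Of all cell barcodes, 21 occurred in both libraries, and 1 of these was a colon SMC.

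Smooth muscle contracts when calcium, bound to calmodulin, activates a kinase that phosphorylates the regulatory light chain of myosin, which then pulls on thin filaments of muscle actin. The filaments are anchored in dense bodies and plaques at the membrane, where integrins and the dystrophin complex link them to the matrix. Transcription of many of these genes depends on serum response factor (SRF) and its muscle coactivator myocardin, which act through a short DNA element called the CArG box. In the gut, smooth muscle forms the muscularis propria, the thin muscularis mucosae and the walls of vessels, and it responds to hedgehog ligands from the epithelium and to signals of enteric nerves and interstitial cells.

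Promoters that hold this element are shown as a sequence feature, although most of the contractile genes searched held no match. In RefSeq's table of mouse promoters (build GRCm38.p6), which spans 250 bases before to 50 bases after each gene's start, a CArG box was searched by its consensus, which reads the same on both strands. A box was found in 7 of the 40 genes with an entry (17.5%) from 3 lists that cover thin filaments, myosin, and intermediate filaments with membrane plaques, and in 488 of 27025 genes of the whole table (1.81%). Actg2, Myh11 and Tagln had no entry, and the windows of Cnn1, Lmod1, Hhip, Acta2, Des and Tpm2 held no match, which says only that these letters are absent there. A match is a description and not a tested binding site. The windows below, 5′ to 3′ on the gene's strand, show the box in capitals for genes of the 3 lists, for Pdgfc and Fbxl22, which are among the leading SMC genes described further on, and for Srf, whose own promoter holds a pair of boxes, the one further from the start in capitals.
Dmd, chrX:82948747-82948806, plus strand: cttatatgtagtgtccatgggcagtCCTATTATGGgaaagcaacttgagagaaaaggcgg
Myl9, chr2:156775278-156775337, plus strand: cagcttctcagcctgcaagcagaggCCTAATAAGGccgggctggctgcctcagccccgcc
Myl6, chr10:128493025-128493084, minus strand: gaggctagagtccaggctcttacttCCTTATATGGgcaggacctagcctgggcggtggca
Vcl, chr14:20929148-20929205, plus strand: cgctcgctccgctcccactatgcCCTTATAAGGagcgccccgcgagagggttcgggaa
Actc1, chr2:114052888-114052947, minus strand: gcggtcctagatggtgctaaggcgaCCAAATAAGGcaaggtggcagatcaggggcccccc
Fhl1, chrX:56779556-56779615, plus strand: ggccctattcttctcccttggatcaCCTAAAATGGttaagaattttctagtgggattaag
Ldb3, chr14:34588682-34588741, minus strand: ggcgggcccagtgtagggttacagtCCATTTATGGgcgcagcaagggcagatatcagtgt
Pdgfc, chr3:81036374-81036415, plus strand: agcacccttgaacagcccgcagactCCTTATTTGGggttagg
Fbxl22, chr9:66514781-66514840, minus strand: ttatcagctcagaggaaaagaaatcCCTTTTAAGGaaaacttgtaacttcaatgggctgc
Srf, chr17:46556210-46556269, minus strand: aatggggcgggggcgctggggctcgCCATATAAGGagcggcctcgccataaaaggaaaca
The box of Myl6 ends 41 bases before the annotated start and that of Dmd 89 bases before it, while that of Vcl lies further out, ending 218 bases before the start.

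The label was checked against 6 smooth muscle markers, and all 6 were higher in SMCs than in any of the other 5 types. Levels are given as CPM, a gene's UMIs divided by all UMIs of the type and multiplied by 1000000, which for 3′ tags is not divided by transcript length. Actg2, enteric gamma smooth muscle actin (chr6:83512905-83536265, GRCm38), reached 1572 CPM in SMCs (exact Poisson 95% interval 1485 to 1663). In SEMFs it stood at 2.96 CPM, in CD81- FBs at 1.25, in trophocytes at 3.14, in LECs at 1.88, and BECs had no UMI. Against trophocytes, the next type, the log2 ratio was 8.97 (interval 8.33 to 9.68). Myh11, smooth muscle myosin heavy chain (chr16:14194535-14291372), had 2894 CPM (2775 to 3017), against 76.4 in SEMFs and 5.03 to 11.1 in the other types, a log2 ratio of 5.24 (5.11 to 5.38).

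Cnn1, the actin-binding calponin (chr9:22099216-22109630), had 864 CPM in SMCs and at most 3.44 elsewhere. Lmod1, leiomodin, which nucleates actin filaments (chr1:135324807-135368065), had 690 CPM and at most 3.71 elsewhere. These genes separate SMCs from the myofibroblast label as sharply as from endothelium. Hhip, a decoy receptor that binds hedgehog ligands at the cell surface (chr8:79965851-80058006), reached 2522 CPM (2412 to 2637) in SMCs, 96.0 in trophocytes, 27.5 in CD81- FBs and 13.9 in SEMFs. Des, the muscle intermediate filament desmin (chr1:75360329-75368579), was the weakest of the 6 with 139 CPM (114 to 167), against 36.4 in CD81- FBs, 22.5 in trophocytes and 1.34 in SEMFs. In the 8 pericytes Hhip had no UMI, where 3 counts would be 86.5 CPM, while Actg2 had 12 UMIs, or 346 CPM (179 to 604).

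Most single SMCs carried the markers. At least 4 of the 6 were detected in 118 of the 125 cells, all 6 in 39, and no cell had fewer than 2. Myh11 had a UMI in every SMC, Actg2 in 96.0% (90.9 to 98.7) and Des in 36.8% (28.4 to 45.9). After each cell was thinned to 3000 UMIs, which kept 118 SMCs and 1060 SEMFs, Actg2 was detected in 92.4% of SMCs and 0.755% of SEMFs, compared with 1.27% of SEMFs before thinning. Myh11 was detected in all thinned SMCs and 16.5% of thinned SEMFs, and in 27.1% of SEMFs before thinning. Hhip was detected in 91.5% of thinned SMCs and in 14.9% of the 817 thinned trophocytes, or 21.4% of trophocytes before thinning.

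**Figure D1:**
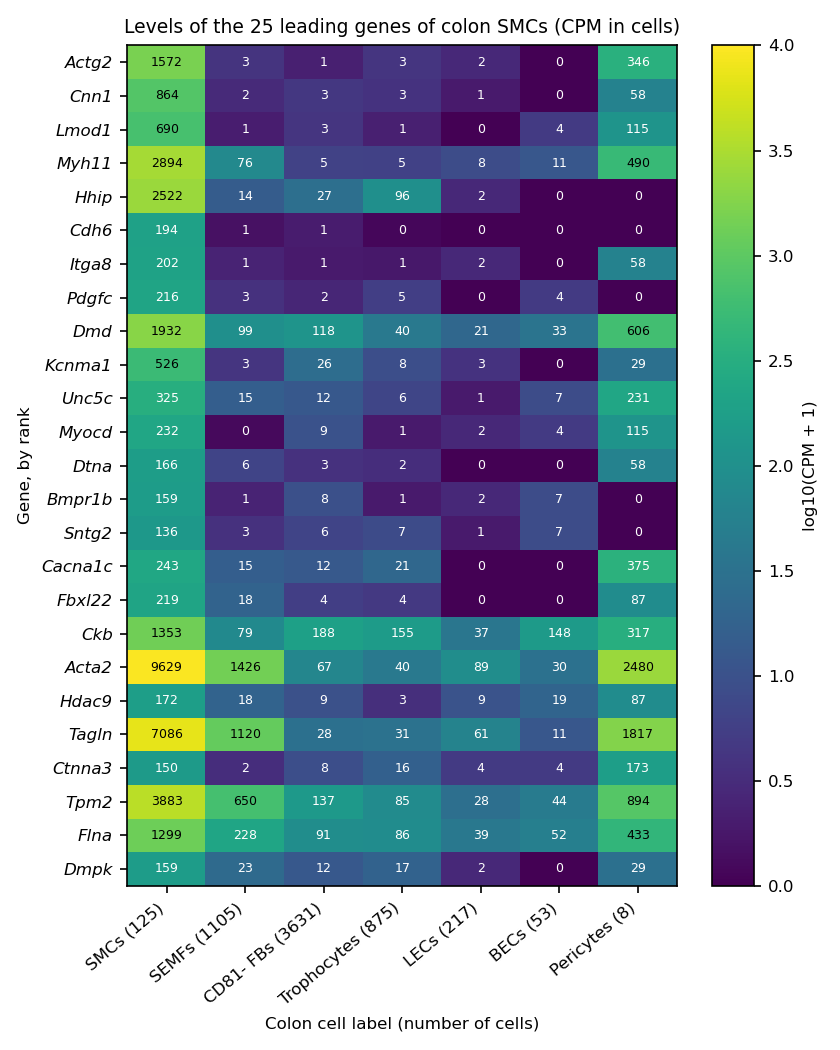
Heat map of the 25 leading SMC genes (rows, by rank) in 7 colon labels (columns, with cell numbers), with the CPM printed in each cell and the colour on a log10(CPM + 1) scale. SMCs hold the highest value of the first 6 columns in every row, from 136 CPM for Sntg2 to 9629 for Acta2, and the 8 pericytes exceed SMCs for Cacna1c and Ctnna3.

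Genes were called higher or lower at a ratio of at least 2-fold after 10 CPM was added to both levels, a step that shrinks the ratios of scarce genes. Of 9088 genes with a mean of at least 10 CPM over the 6 types, 145 (1.60%) were higher in SMCs than in every other type and 41 (0.451%) lower. That mean includes SMCs, so a gene can be tested through its SMC level alone, which favours a call as higher. The median log2 ratio to the highest other type over all these genes was -0.47. The 25 leading genes were ranked by that ratio among genes with at least 100 SMC UMIs, detection in at least 25% of SMCs and no more than 25% of their UMIs in 1 cell. The last of them, Dmpk, had 2.37 and the next gene outside, Ccdc107, 2.35. Since the ranking chose them, their ratios are descriptions.

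Besides Actg2, Cnn1, Lmod1, Myh11 and Hhip, the leading genes included actin-binding proteins, the dystrophin complex, channels and surface receptors, and 10 of the 25 were in the 3 contractile lists. Dmd, dystrophin, stood at 1932 CPM against 118 in CD81- FBs, and Dtna, its partner alpha-dystrobrevin, at 166 CPM against 5.65 in SEMFs. Itga8, the integrin alpha 8 chain, stood at 202 CPM and was at most 1.88 elsewhere, and Cdh6, a cadherin, at 194 CPM and at most 1.05. Kcnma1, the pore of the large-conductance calcium-activated potassium channel, had 526 CPM against 25.9 in CD81- FBs. Cacna1c, the pore of the L-type calcium channel that admits the calcium for contraction, had 243 CPM against 20.7 in trophocytes. Myocd, myocardin, had 232 CPM (199 to 268) against 9.19 in CD81- FBs and 0.269 in SEMFs, a log2 ratio to CD81- FBs of 4.66 (4.37 to 4.95).

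Signalling genes among the 25 were Pdgfc, a platelet-derived growth factor (216 CPM, at most 4.55 elsewhere), Bmpr1b, a type I BMP receptor (159 CPM against 8.46 in CD81- FBs), and Unc5c, a netrin receptor (325 CPM against 14.7 in SEMFs). Ckb, brain-type creatine kinase, which buffers ATP, was abundant at 1353 CPM against 188 in CD81- FBs. Several leading genes were not exclusive to SMCs. Acta2, alpha smooth muscle actin, was the most abundant of the 25 at 9629 CPM and reached 1426 in SEMFs, a log2 ratio of 2.76 (2.71 to 2.80). Tagln, transgelin, had 7086 CPM against 1120 in SEMFs, and Tpm2, beta-tropomyosin, 3883 against 650. The remaining 4 types had 137 CPM or less of each of these 3 genes.

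In the small intestine, 23 of the 25 genes were also highest in the cells labelled SMCs, where 1092 of 9081 genes (12.0%) had their highest level. The exceptions were Hdac9, a histone deacetylase, highest in BECs there, and Ctnna3, alpha-T-catenin, highest in trophocytes there. The colon cells were also split by Xist, the RNA of the inactive X chromosome: 2700 cells (37 SMCs) had Xist but nothing from Y-linked genes, and 1751 (45 SMCs) the reverse. All 25 genes kept a log2 ratio of at least 1 to every other type in each of these sets. The cells of both sets were among those that chose the 25 genes, so this outcome was nearly fixed in advance and is only a description. SMCs made up 1.37% (0.967 to 1.88) of the Xist set and 2.57% (1.88 to 3.42) of the Y-linked set. The number of animals behind the sets is not given, so this split is no biological replicate.

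**Figure D2:**
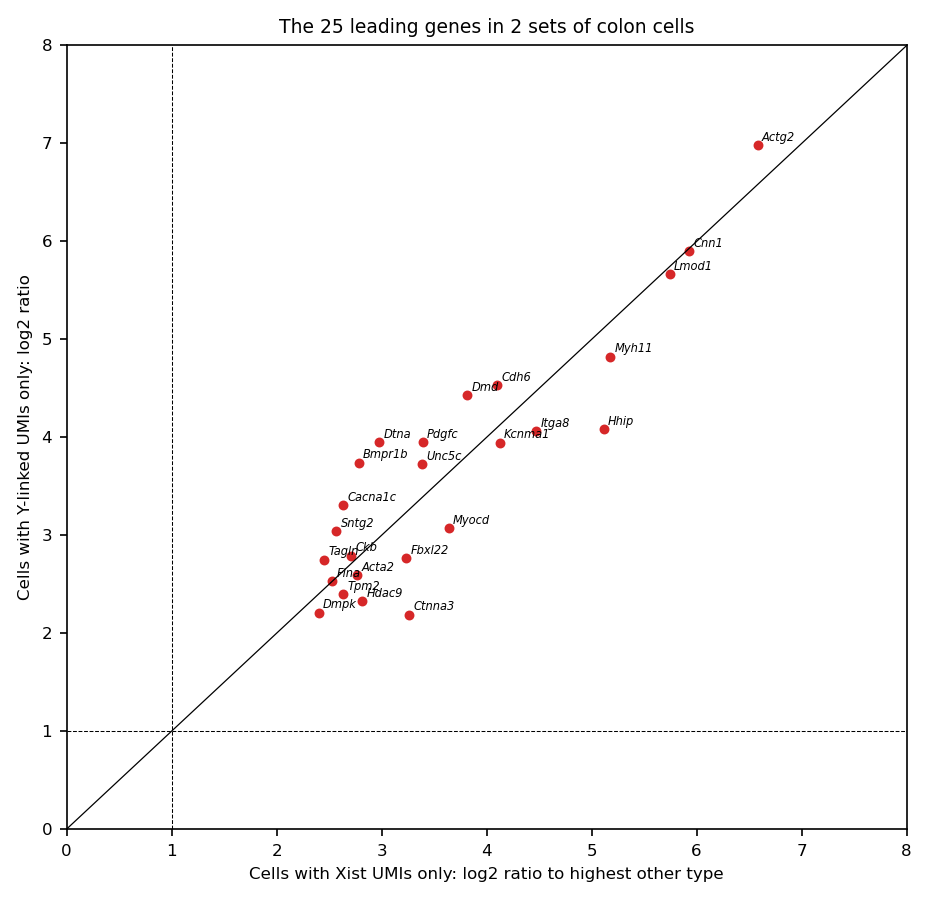
Scatter plot of the 25 leading genes, with the log2 ratio of SMCs to the highest other colon type (10 CPM added) in cells with Xist UMIs only on the x axis and in cells with Y-linked UMIs only on the y axis. All 25 points lie above the dashed lines at 1 and follow the line of equality, with Actg2 highest on both axes. The genes were chosen in all colon cells, these sets included.

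The contractile apparatus was the most distinctive set of lists. Of 14 thin filament genes, all tested, 11 were higher in SMCs than in every other type, with a median log2 ratio of 2.51. Beyond those named above, Tpm1, alpha-tropomyosin, had 2715 CPM against 695 in SEMFs, Flna, the actin crosslinker filamin A, 1299 against 228, and Synpo2, a dense body protein, 268 against 92.9. Actc1, cardiac alpha actin, was scarce but nearly exclusive, with 55 UMIs (71.2 CPM) in SMCs and 1 UMI in all the other 5 types, but 10 of the 125 SMCs held 44 of the 55, and 1 cell 16. Members outside the count were Actn1, alpha-actinin, with 401 CPM against 214 in SEMFs, Cald1, caldesmon, with 1427 against 1327, and Tpm4, a non-muscle tropomyosin, with 232 CPM in SMCs against 488 in SEMFs and 588 in LECs.

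Among 14 myosin and light chain control genes, 7 were higher than in every other type, with a median log2 ratio of 0.91. Myl9, the regulatory light chain, stood at 2346 CPM against 459 in SEMFs, Myl6, the essential light chain, at 7162 against 2155, and Mylk, the kinase that phosphorylates Myl9, at 1479 against 371. Ppp1r12a and Ppp1r12b, targeting subunits of the myosin phosphatase, and Ppp1r14a, its inhibitor CPI-17, were also above every other type. The non-muscle heavy chains ran the other way, with Myh9 at 154 CPM against 485 in SEMFs and Myh10 at 41.4 against 138. Rhoa and Rock2, which are found in most cells, did not stand apart, with Rhoa at 454 CPM in SMCs and 468 to 533 in the other types.

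Of 18 tested genes for intermediate filaments, dense plaques and the dystrophin complex, 8 were higher than in every other type, with a median of 0.87. Nexn, an actin-binding protein of adhesions, had 448 CPM against 103 in SEMFs, Svil, supervillin, 344 against 93.9 in LECs, Csrp1, a muscle LIM protein, 963 against 356 in SEMFs, and Vcl, vinculin, 544 against 208 in SEMFs. Vim, vimentin, the intermediate filament of mesenchymal cells, was not among them, with 1695 CPM in SMCs and 1378 to 2938 in the other types. In all, 26 of the 46 tested genes of these 3 lists were higher than in every other type, beside 1.60% of all tested genes, and 37 of the 46 had their highest level in SMCs, beside 1586 of all 9088 (17.5%). None of the 46 was lower than in every other type. The 46 include Actc1, Actg2, Cnn1, Lmod1 and Itga8, each of which was tested only through its SMC level, which favours a call as higher. They also include the SMC markers Myh11 and Des, beside the markers Actg2, Cnn1 and Lmod1, so the count is no independent check of the label.

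**Figure D3:**
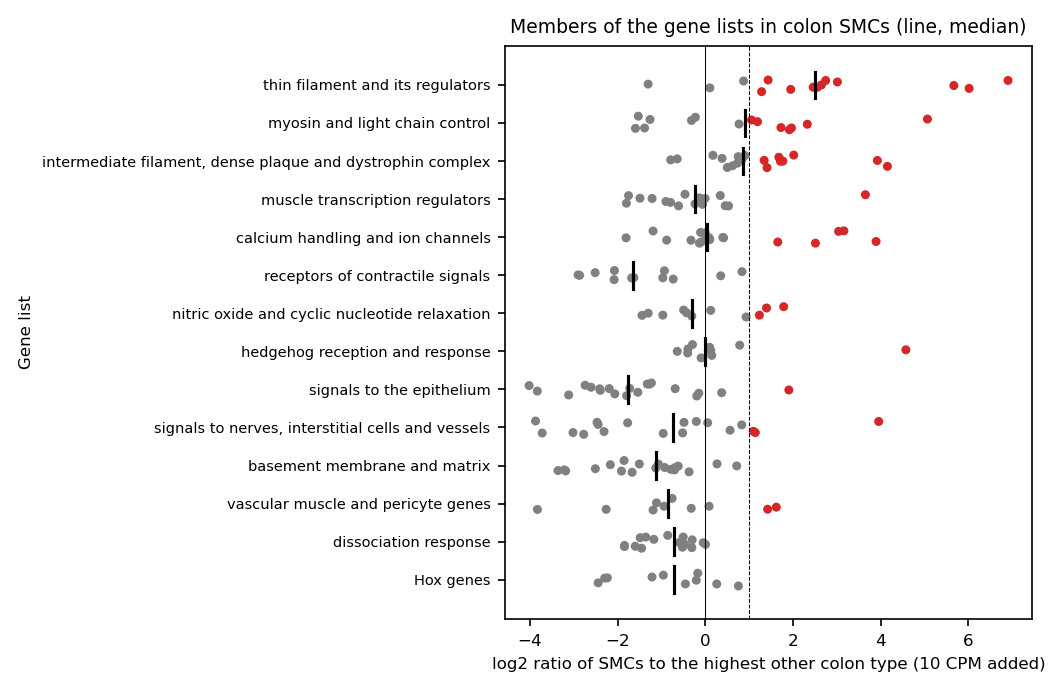
Strip plot of the tested members of 14 gene lists (rows) by the log2 ratio of SMCs to the highest other colon type, with 10 CPM added. Red points are at least 2-fold above every other type, black bars are list medians, and the thin filament list lies furthest right with a median of 2.51 while signals to the epithelium lie furthest left by their median of -1.76.

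A direct comparison was made with SEMFs, the fibroblast label that also carries Acta2, Tagln and Myl9. Of the 9088 tested genes, 400 (4.40%) were higher in SMCs than in SEMFs and 562 (6.18%) lower, with a median log2 ratio of -0.08. Of the 46 contractile genes, 31 were higher and 3 lower (Tpm4, Myh9 and Myh10). Genes shared with SEMFs at similar levels included Cald1, Casq2, which buffers calcium in the sarcoplasmic reticulum (201 and 186 CPM), Foxf1 (245 and 256) and Ptch1 (442 and 472). Lower in SMCs were ligands known from the subepithelial niche: Bmp3 (6.47 against 225 CPM), Bmp7 (12.9 against 189), Wnt5a (54.4 against 421), Bmp2 (75.1 against 379) and Bmp5 (343 against 1215). Basement membrane chains Col4a5 (55.7 against 665) and Col4a6 (28.5 against 348) and the chemokine Cxcl12 (289 against 2412) followed the same direction.

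**Figure D4:**
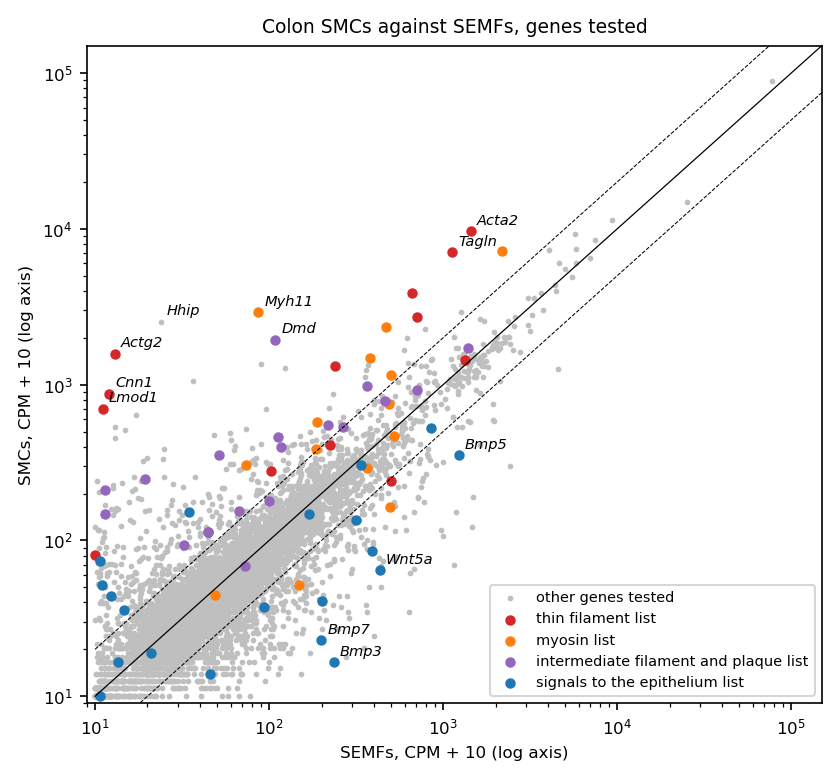
Scatter plot of 9088 genes with the level in SEMFs on the x axis and in SMCs on the y axis, both as CPM + 10 on log axes, with the line of equality and dashed lines at 2-fold. Thin filament genes (red), myosin genes (orange) and plaque genes (purple) lie mostly above the upper dashed line, and Bmp3, Bmp5, Bmp7 and Wnt5a (blue) below the lower one.

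The separation from SEMFs was also examined cell by cell, as the share of a cell's UMIs from the 3 contractile lists. The share had a median of 5.79% in SMCs (range 1.65 to 11.2%) and 1.46% in SEMFs (0.506 to 4.61%), and between 0.698% and 0.841% in fibroblasts, trophocytes and endothelium. No SMC was at or below the SEMF median, but the ranges overlapped: 29 of 125 SMCs lay within the range of SEMFs, and 415 of 1105 SEMFs lay at or above the lowest SMC. Without these 29 SMCs, an alternative chosen after the data were seen, 175 genes were higher than in every other type and 446 higher than in SEMFs. The 29 were picked by their contractile share, so leaving them out raises the contractile genes by design. Over all 9088 genes the Spearman correlation of levels with SMCs was 0.830 for CD81- FBs, 0.821 for SEMFs, 0.755 for trophocytes, 0.616 for LECs and 0.594 for BECs, a description across genes of 1 library in types of different depth.

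Among genes of calcium handling and ion channels, a few stood apart from the other types. Of 18 tested genes, 5 were higher in SMCs than in every other type: Kcnma1 and Cacna1c, Kcnmb1, the smooth muscle subunit of the Kcnma1 channel (93.2 CPM against 8.07 in SEMFs), Trpc6, a receptor-operated cation channel (88.1 CPM against 0.941), and Slmap, a sarcolemma-associated protein (308 CPM against 91.0 in LECs). Over all tested genes that share was 1.60%, and the median of the list was 0.04. Kcnmb1 and Trpc6 were tested only through their SMC level. The calcium pump Atp2a2, the store receptor Itpr1 and the exchanger Slc8a1 were within 2-fold of the highest other type. Pln, phospholamban, which restrains the calcium pump, had no UMI in SMCs, where the floor of 3 counts is 3.88 CPM. Ano1, the calcium-activated chloride channel known from interstitial cells of Cajal, had 31 UMIs, all of them in 10 or fewer cells.

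Several receptors for contractile signals were not detected in SMCs. None of 12 tested receptors was higher than in every other type, beside 1.60% of all tested genes, a share at which 0 of 12 says little, and the median was -1.65. Of 21 receptors listed, 9 had no UMI in SMCs, beside 3072 of all 16381 listed genes (18.8%): the muscarinic receptors Chrm2 and Chrm3, the adrenergic receptors Adra1a, Adra1b, Adra2a and Adrb3, the serotonin receptor Htr2b, the angiotensin receptor Agtr1a and the purinergic receptor P2rx1. A count of 0 in 125 cells allows up to 2.40% of cells with a UMI. Chrm3 stood at 59.1 CPM in trophocytes and 63.0 in BECs. The thrombin receptor F2r was the most abundant receptor of the list in SMCs, with 435 CPM against 239 in SEMFs. The endothelin receptors were lower than in SEMFs, Ednra with 142 against 281 CPM, which is within 2-fold, and Ednrb with 66.0 against 225.

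Of the genes for relaxation by nitric oxide and cyclic nucleotides, some were highest in SMCs and others in LECs. Of 11 genes, 3 were higher than in every other type: Prkg1, the cGMP-dependent kinase (855 CPM against 318 in LECs), Pde4d, which breaks down cAMP (1237 against 350 in SEMFs), and Adcy5, an adenylyl cyclase (111 against 41.6 in SEMFs). Pde5a, which breaks down cGMP, had 399 CPM against 204 in SEMFs. The nitric oxide receptor subunits Gucy1a1 (201 CPM) and Gucy1b1 (212 CPM) were higher in LECs, with 510 and 425 CPM. Over all tested genes the share higher than in every other type was 1.60%, and the list had a median of -0.31, beside -0.47 over all tested genes.

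Transcription regulators of muscle showed 1 gene apart. Myocd was higher than in every other type, and no other member of 17 tested was, beside 1.60% of all tested genes. It was tested only through its SMC level, which favours that call. The list had a median of -0.24. Srf itself was low, with 25.9 CPM in SMCs and 4.69 to 14.8 in the other types. Regulators of gut mesenchyme were at levels near those of SEMFs: Foxf1, Foxf2 (114 CPM in both SMCs and SEMFs), Nkx2-3 (307 against 427 in SEMFs) and Pitx1 (263 against 205 in SEMFs). Mef2c, a partner of myocardin in muscle, had 135 CPM in SMCs, 16 in SEMFs and 397 in BECs. Of 22 Hox genes, 10 had no UMI in SMCs, beside 18.8% of all listed genes. None of the 10 tested was called higher or lower than every other type. That says little beside 1.60% and 0.451% of all tested genes. The posterior genes Hoxa10 (90.6 CPM) and Hoxa13 (76.4 CPM) were detected and had 74.0 and 41.1 CPM in SEMFs.

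Hedgehog genes set Hhip apart from the rest of its pathway. Only Hhip of 10 tested genes was higher than in every other type, beside 1.60% of all tested genes, with a list median of 0.00092. The receptor Ptch1 (442 CPM in SMCs and 472 in SEMFs) and the transcription factor Gli1 (37.6 CPM in SMCs and 32.5 to 32.9 in SEMFs, CD81- FBs and trophocytes), both known targets of the pathway, were at similar levels. Gas1, a coreceptor, was shared with trophocytes, with 442 CPM in SMCs, 252 in trophocytes and at most 4.69 in the other types.

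Signals to the epithelium differed from SEMFs in both directions. Of 20 tested genes, 9 were lower than in SEMFs and 5 higher, beside 6.18% and 4.40% of all tested genes. The median was -1.76 against the highest type and -0.44 against SEMFs. Grem1, a BMP antagonist known from trophocytes, had 25.9 CPM in SMCs, 573 in trophocytes and 4.71 in SEMFs. Bmp4 was the most abundant BMP ligand in SMCs, with 517 CPM, and was higher in SEMFs (838) and CD81- FBs (719). The Wnt inhibitor Sfrp1 had 141 CPM in SMCs against 24.7 in SEMFs and 911 in CD81- FBs.

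Among signals to nerves, interstitial cells and vessels, 3 of 18 tested genes were higher than in every other type, beside 1.60% of all tested genes. Besides Pdgfc these were Sema3a, a repulsive axon guidance cue (329 CPM against 144 in LECs and at most 10.3 elsewhere), and Vegfc, a lymphatic growth factor (148 against 63.7 in CD81- FBs). Pdgfc was tested only through its SMC level, which favours its call. Gdnf, the growth factor of enteric neurons, was at similar levels in SMCs (34.96 CPM) and SEMFs (41.8). Kitl, the ligand that interstitial cells of Cajal depend on, was lower in SMCs (64.7 CPM) than in SEMFs (148) and BECs (404). None of 19 tested matrix genes was higher than in every other type, which says little beside 1.60% of all tested genes. Against SEMFs 5 were lower, beside 6.18% of all tested genes. The median against the highest other type was -1.13. Itgb1 (1304 CPM against 789 in SEMFs) and Itga1 (404 against 334 in BECs), chains of a collagen-binding integrin, had their highest levels in SMCs.

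Genes of vascular muscle and pericytes gave a mixed picture. Of 10 tested, Rgs5, a regulator of G protein signalling known from mural cells (500 CPM against 156 in BECs), and Mustn1 (484 against 174 in trophocytes) were higher than in every other type. Over all tested genes that share was 1.60%. The 8 pericytes had 2278 CPM of Rgs5 (1804 to 2839). By contrast, Notch3, Rgs4, Ndufa4l2, Cox4i2, Vtn, Steap4 and Sncg had no UMI in SMCs. Rgs5 was detected in 61 SMCs and Hhip in 116, with 54 cells holding both, and 10 cells held 52.8% of the Rgs5 UMIs. By level the genes ran opposite ways, with a Spearman correlation of -0.47 across the 125 cells, given as a description. In the 10 SMCs with the most Rgs5 per 10000 UMIs (19.6 to 61.1), chosen after their values were seen, Hhip ranged from 0 to 16.8 per 10000 with a median of 3.36 and had no UMI in 3. Its median in the other 115 SMCs was 23.8. These 10 cells all carried Actg2, at 3.02 to 17.96 per 10000, and Myh11, at 7.01 to 47.9. Their medians were lower, with Actg2 at 7.75 against 14.4 in the other 115 SMCs and Myh11 at 16.8 against 25.5. Acta2 had 65.6 against 100. Across all 125 cells, however, the correlation of Rgs5 was -0.20 with Actg2 and -0.02 with Myh11, so the lower Myh11 of these 10 cells was no trend over the label. The summed level of 8 listed pericyte markers was 619 CPM in SMCs, mostly Rgs5, and 4787 in pericytes. The part of vascular muscle or pericyte RNA in these values was not tested.

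Markers of other cells were read the same way. Epithelial markers (5 listed) and mesothelial markers (2 listed) had no UMI in SMCs. Blood endothelial markers (6 listed) summed to 3.88 CPM against 7602 in BECs, with Cdh5, Kdr and Emcn at 0, and immune markers (5 listed) to 3.88 CPM, with Ptprc at 0. Lymphatic markers (6) summed to 19.4 CPM against 23263 in LECs, cycling markers (4) to 5.18, glial (4) to 3.88 and neuronal (2) to 9.06. Vascular smooth muscle markers (4) summed to 484 CPM, all from Mustn1. Markers of interstitial cells of Cajal (6) summed to 54.4 CPM in SMCs and 206 in SEMFs, with Kit at 0.

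Fibroblast markers were the exception by their level. All 8 were detected, with a sum of 7559 CPM in SMCs. That sum was 14852 in SEMFs, 23680 in CD81- FBs, 30305 in trophocytes, 5566 in BECs and 2404 in LECs. Dcn, the proteoglycan decorin, was detected in 91.2% of SMCs, 44.2% of LECs and 41.5% of BECs, and after thinning in 81.4%, 34.0% and 35%. Adamdec1, a protease of mucosal fibroblasts, had 1242 CPM in SMCs, 5608 in CD81- FBs, 1287 in BECs and 522 in LECs. It was detected in 64.4% of thinned SMCs (69.6% before thinning) and 30% of thinned BECs (30.2% before), and 10 SMCs held 51.7% of its UMIs. Pdgfra, the receptor that marks SEMFs, had a UMI in 5.93% of thinned SMCs and 6.5% of thinned LECs (10.4% and 9.22% before thinning), and 10 SMCs held 43 of its 46 UMIs, 1 of them 17. The part of free RNA or of cell pairs in the fibroblast values was not tested.

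**Figure D5:**
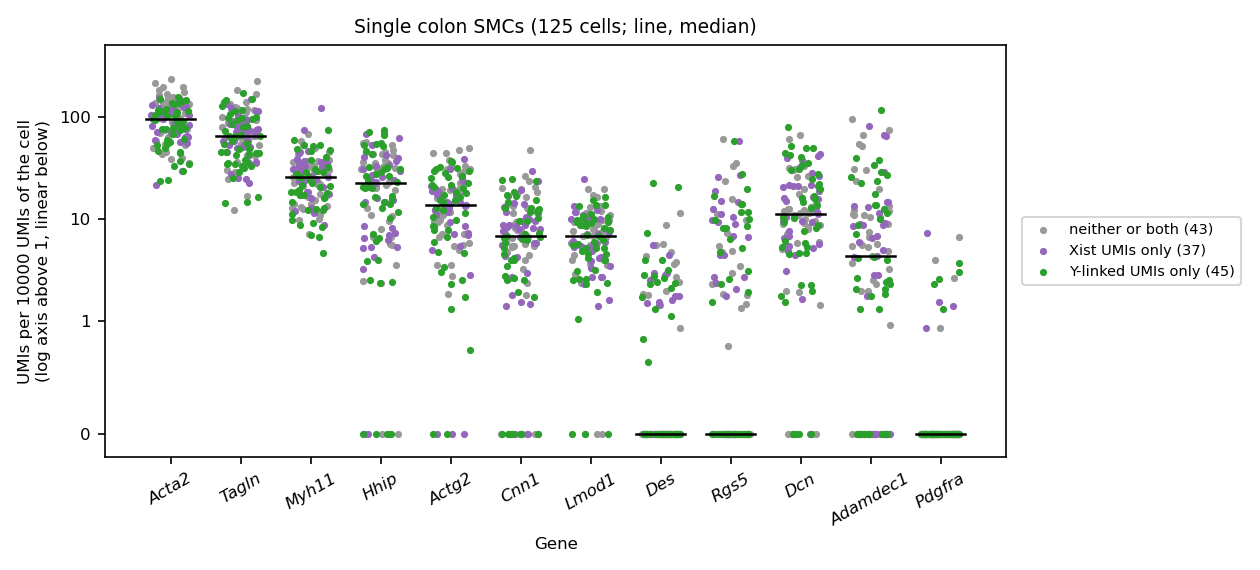
Strip plot of 12 genes (x axis) in the 125 SMCs, with each point the UMIs of the gene per 10000 UMIs of a cell (y axis, log above 1 and linear below), coloured by Xist and Y-linked UMIs, and black lines at the median. Acta2, Tagln and Myh11 are above 0 in every cell, while Des, Rgs5 and Pdgfra have a median of 0.

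Single SMCs differed widely in the levels of the contractile genes. Acta2 ran from 21.4 to 236 UMIs per 10000, with a median of 96.0. Actg2 had a median of 13.7 per 10000 and ranged from 0 to 49.3. Hhip had the widest middle range of the markers, from 2.47 at the 10th percentile to 51.9 at the 90th. Across the 125 cells, the genes whose normalized level was most like Actg2 by Spearman correlation were Acta2 (0.72), Myl6 (0.70), Tpm2 (0.67), Dstn, an actin-severing protein (0.61), and Tagln (0.61). The least alike were Ctsc, a lysosomal protease (-0.44), Gpc6, a glypican (-0.41), Ifitm1 (-0.38), Cxcl12 (-0.37) and Myh9 (-0.35). Hhip correlated with Actg2 at 0.53, Myocd at -0.03 and Rgs5 at -0.20, and the UMIs per cell at 0.06. The cells share 1 library, and these values carry no test.

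The 8 genes furthest below every other type included an antigen presentation gene. H2-K1, a classical MHC class I heavy chain, had 258 CPM in SMCs (223 to 296) and 738 to 1695 in the other types, a log2 ratio to trophocytes, the lowest of them, of -1.52 (-1.73 to -1.31). Marcks, an actin-linked substrate of protein kinase C, had 25.9 CPM against 119 to 523. Ramp2, part of the adrenomedullin receptor, had 22.0 CPM against 103 to 594. Smpdl3a, Trf (transferrin), Osmr (the oncostatin M receptor) and Cpne8 had 2 to 8 UMIs in SMCs, and 9930111J21Rik2 had none.

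The dissociation response, immediate early and heat shock genes that enzyme digestion is known to induce, was read from 16 genes. None was higher than in every other type, beside 1.60% of all tested genes, and 3 were higher than in SEMFs (Fos, Atf3 and Zfp36), beside 4.40%. The medians were -0.72 against the highest other type and 0.64 against SEMFs, and -0.47 and -0.08 over all tested genes. Fos had 2928 CPM in SMCs, 1257 in SEMFs and 4054 in trophocytes.

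Set beside the 468 cells labelled SMCs in the small intestine, colon SMCs had higher levels of several contractile genes. Tissue, digestion time and library differ together and cannot be told apart. Of 8883 genes, 268 (3.02%) were higher in colon SMCs and 858 (9.66%) lower, with a median log2 ratio of -0.20. Of 47 contractile genes, 7 were higher and none lower, with a median of 0.33. Actg2 had 1572 CPM in the colon and 727 in the small intestine, and Tpm2 3883 and 1364. Myh11, with 2894 and 1554 CPM, was within 2-fold, and Des ran the other way within 2-fold, with 139 and 178. Of the 6 SMC markers, 4 were higher in the colon and 0 lower. The contractile share of UMIs had a median of 5.79% and 3.58%. Of the 8 fibroblast markers, 4 were lower in colon SMCs (Adamdec1, with 1242 and 9211 CPM, Dcn, with 1556 and 7428, Col1a1 and Col1a2) and none higher, with a median of -1.01, while Col3a1 was level at 2783 and 2758 CPM. The part of fibroblast RNA in the small intestinal label was not tested.

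The 5 genes furthest above the small intestinal SMCs were Gm42418, Rbp4, Cdk8, Cmss1 and Lars2. All but Rbp4 were among 9 genes at least 8-fold higher in the colon library in all 6 types, which took 11.8% of the UMIs of colon SMCs and 0.242% of those of small intestinal SMCs, and 10.1 to 13.0% in the other colon types. When these genes were left out of the totals, a choice made after the values were seen, 380 genes were higher and 648 lower, and the median was -0.06. Rbp4, the retinol carrier, had 1257 CPM (1179 to 1339) in colon SMCs and 14.3 in small intestinal SMCs, and 1153 in colon SEMFs. Its log2 ratio of colon to small intestine was 6.46 in SMCs, 1.43 in SEMFs and 4.08 in CD81- FBs. Next, among genes outside that group, were Lgals3 (300.4 and 1.07 CPM), Sema3a (329 and 7.48), Rgs10 (1301 and 64.5) and Fam129a (193 and 2.49), and Isl1 and Id1 stood among the 8 highest, all chosen after their values were seen. These differences were not limited to SMCs: the log2 ratio of colon to small intestine for Lgals3 was 8.13 in SMCs, 7.89 in SEMFs and 6.55 in CD81- FBs, and for Fam129a 6.27, 4.59 and 5.77. For Rgs10 it was 4.33, 1.44 and 2.18, and for Sema3a 5.46, 3.02 and 3.24. Endothelium shared only part of this. In LECs and BECs the ratio was -0.99 and -0.53 for Lgals3, 0.20 and -0.21 for Fam129a, and 2.42 and 4.32 for Rgs10. For Sema3a it was -1.44 in LECs, and colon BECs had no UMI of it. Furthest below were Hpse2 (10.4 and 3278 CPM), Sntg1 (2.59 and 849), Efna5 (3.88 and 696), Il33 (3.88 and 422) and Npnt (5.18 and 443). In SEMFs, CD81- FBs and SMCs the log2 ratio of colon to small intestine was -3.44, -5.36 and -8.31 for Hpse2. For Sntg1 it was -0.85, -5.19 and -8.36, for Efna5 -2.47, -3.83 and -7.49, and for Il33 -4.29, -2.98 and -6.76. Npnt had 0.15, -4.04 and -6.42, with at most 6.45 CPM in SEMFs and CD81- FBs of both tissues. Npnt, nephronectin, an integrin ligand, and Sntg1, a syntrophin of the dystrophin complex, were highest in the SMC label within the small intestine.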

How the data were processed

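For each library the authors deposited raw UMI counts per gene and cell, which gave every main value, natural log values per cell, and a text table of cell type labels. Per the submitters' processing notes, Cell Ranger 7.1.0, Seurat 4 and build mm10 were used, with no role given. The deposited natural log values equalled the natural log of 1 plus UMIs per 10000, checked against the counts, and served for the correlations with Actg2 and an alternative. The colon held 16381 listed genes and 40684070 UMIs (6018 cells, median 6598), and the small intestine 18262 genes and 58134526 UMIs (9359 cells, median 5943). No column belonged to another sample (0).

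UMIs were summed per label (Python 3.11.15, numpy 2.4.6, scipy 1.17.1, pandas 2.3.3). Levels carry exact Poisson, ratios exact conditional binomial and shares Clopper-Pearson 95% intervals, and a floor of 3 counts stands for 0. Types with at least 50 cells were compared. Doublets were not called; whether they were removed before deposit is not given in the sources used here. Alternatives left out the 12 SMCs with the most UMIs and the 1 SMC with a UMI of Pecam1, Cdh5, Ptprc or Epcam.

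Named genes are the 6 markers, the 25 highest and 8 lowest ratios, the 5 genes most and 5 least like Actg2, the 5 highest and 5 lowest against small intestinal SMCs, and members of 14 lists. The rankings skipped Xist, Tsix and genes of mitochondria, ribosomal proteins, haemoglobin, immunoglobulins and the Y chromosome. Members, lists and tests were chosen with earlier results of these data known. On simulated counts the intervals held the true ratio for 97.5% of 200 changed genes and for 96.5% of unchanged genes in the comparison with SEMFs, simulated on 11997 genes, where none of the unchanged genes (0%) passed the 2-fold call. Against BECs, simulated on 6670 genes, 1.58% of unchanged genes passed it. The simulated counts held counting error only, which is what the intervals assume, so this coverage was nearly fixed in advance. The spread between cells was left out, although 10 of the 125 SMCs held 52.8% of the real Rgs5 UMIs. How the intervals and calls perform under that spread was not tested. Some members of the lists are not reported here by name.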

Additional observations from a re-analysis of the deposited data

How the results depend on the processing

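With 1 CPM added instead of 10, the counts were 212 genes below every other type, 611 above and 1054 below SEMFs, and 437 above and 1437 below small intestinal SMCs. With 50 CPM added they were 6, 195, 201, 99 and 242. With a minimum mean of 50 CPM, 74 genes were above every other type, 210 above and 290 below SEMFs, and 137 above and 420 below small intestinal SMCs. In cells with Xist UMIs only, 172 genes were below every other type, 984 below SEMFs and 1308 below small intestinal SMCs, SMCs made up 1.37% of cells, and the log2 ratios of Grem1 (-0.085) and Sema3d (-0.040) to SEMFs and of Col4a6 (-0.15) to small intestinal SMCs changed sign. In cells with Y-linked UMIs only, 64 genes were below every other type and SMCs made up 2.57%. Genes below every other type numbered 69 without the 10% of SMCs with the most UMIs and 88 without the 29 SMCs within the SEMF range. The cause of these moves was not tested. The median ratio of the contractile lists was 1.48 without these 29 SMCs, which were picked by their share of the same genes, so a rise was built in. In the other settings it stayed between 0.83 and 1.41. Of 300 values of the 25 leading genes over 12 settings, 294 were at least 1, none was below 0, and the other 6 came from means of the natural log values. The same cells chose the 25 genes, so these values are no independent check. No paired analysis was possible because each tissue has 1 library.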
